A study of Homo sapiens with 7 samples.

Results

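Of the sites that Rb occupied reproducibly in palbociclib-treated breast cancer cells, some already carried a peak in cells given DMSO, but in 1 of the 2 DMSO libraries rather than both. These single-library DMSO sites are described here. Chromosomes 1 to 22 and X held 6644 regions with overlapping peaks in both palbociclib libraries, and 658 of them (9.9%) were single-library DMSO sites. The sites were selected on the peak calls themselves: a site overlapped a DMSO peak by at least 1 bp but overlapped no region built from overlapping peaks of both DMSO libraries. Peak calls and peak heights in DMSO and palbociclib are therefore given as description, without a test. Of the 658 sites, 408 overlapped a peak of DMSO replicate 1 alone and 240 a peak of DMSO replicate 2 alone. The other 10 overlapped separate peaks of both replicates that lay 1 to 730 bp apart (median 105 bp), so for these the name holds only in that the 2 peaks did not meet. They were read against the 466 regions with a joint peak of both DMSO libraries (shared DMSO sites) and the 5520 regions with no DMSO peak (palbociclib-only sites).

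The cells were ZR-75-1, a breast cancer line that expresses the oestrogen receptor, treated for 4 days with 500 nM palbociclib, an inhibitor of CDK4 and CDK6, or with DMSO. Rb was profiled by CUT&RUN, in which an antibody guides a nuclease that cuts out DNA around the bound protein, in 2 parental DMSO libraries and 2 parental palbociclib libraries from separate cultures. RB1-knockout (RB1 KO) cells, made by CRISPR and expanded from sorted single cells, gave 1 Rb library with DMSO and 1 with palbociclib. Parental cells with palbociclib gave 1 library with a non-targeting IgG2a antibody. The peak lists carry no expression values, so the identity of the line was not checked against markers.

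Rb, the retinoblastoma protein, represses transcription mainly by binding E2F transcription factors at the promoters of genes for cell cycle entry, DNA replication and repair. Cyclin-dependent kinases phosphorylate Rb and release it from E2F, and CDK4/6 inhibitors hold Rb in its hypophosphorylated form. Promoters of late cell cycle genes often lack an E2F element and carry CCAAT boxes, bound by NFY, and a cell cycle homology region (CHR), which recruits the MuvB complex with the Rb relatives p107 and p130.

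The sequences below show these elements at named single-library DMSO sites, read from hg38 and printed on the strand of the gene, with E2F letters and CCAAT boxes in capitals. MCM6, a subunit of the replicative helicase (chr2:135876477-135876611, minus strand) is shown because both kinds of element lay within 100 bp of its summit. The windows of CDT1, the licensing factor that loads the helicase (chr16:88803734-88803781, plus strand), and FANCA of the Fanconi anaemia core complex (chr16:89816792-89816839, minus strand) hold E2F letters. PKMYT1, the kinase that inhibits CDK1 (chr16:2980448-2980477, minus strand), is cut to 30 bases because it overlaps an annotated exon.
MCM6: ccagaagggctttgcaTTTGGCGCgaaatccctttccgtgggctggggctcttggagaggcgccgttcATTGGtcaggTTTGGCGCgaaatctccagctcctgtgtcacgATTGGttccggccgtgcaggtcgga
CDT1: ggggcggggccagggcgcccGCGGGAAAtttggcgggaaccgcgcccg
FANCA: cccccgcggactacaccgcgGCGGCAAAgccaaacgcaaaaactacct
PKMYT1: ggtttggaattTTTGGCGCgagcagctccg

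A second set holds sites without E2F letters in the window. Both sets are chosen examples, not a measure of how common the elements are. CHR letters were at 4.26% of single-library DMSO sites, against 6.75% of windows at the starts of protein-coding genes. TOP2A, the mitotic topoisomerase (chr17:40417925-40418076, minus strand), and CDKN3, a phosphatase that acts on CDKs (chr14:54396779-54396948, plus strand), are printed with CCAAT boxes and CHR letters in capitals. The intronic site of RYR1, which encodes a calcium release channel of muscle (chr19:38507241-38507285, plus strand), is printed with its CCAAT box because it had the highest palbociclib peak of all 658 sites.
TOP2A: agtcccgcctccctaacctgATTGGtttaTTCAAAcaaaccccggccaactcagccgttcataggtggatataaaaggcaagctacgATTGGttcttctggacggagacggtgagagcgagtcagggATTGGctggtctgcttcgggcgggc
CDKN3: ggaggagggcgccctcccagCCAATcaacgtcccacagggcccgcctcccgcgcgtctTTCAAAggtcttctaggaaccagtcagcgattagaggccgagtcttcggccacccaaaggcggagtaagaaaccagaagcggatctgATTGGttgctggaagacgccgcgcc
RYR1: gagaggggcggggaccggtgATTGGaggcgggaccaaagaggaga

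Peak height was read as fold enrichment, the peak caller's ratio of fragments plus 1 to local background plus 1 at the summit. It is therefore smaller than the plain ratio, most of all where the background is low. Height was also read as the number of fragments over the summit. This was recovered as a whole number from the fold enrichment and p of each peak. Over the single-library DMSO sites, the median fold enrichment was 5.12 in DMSO replicate 1 (418 peaks) and 5.48 in DMSO replicate 2 (250 peaks), against 15.4 and 15.2 in the palbociclib libraries (658 peaks each). In fragments, the medians were 12 and 11 in DMSO and 36 and 37 in palbociclib. The height of every DMSO peak at a site lay below both palbociclib peaks in fragments at 651 of the 658 sites. The median ratio of palbociclib to DMSO fold enrichment was 2.87, with the middle 50% of sites between 2.21 and 3.59. A library without a peak gives no value at a site, so DMSO values describe only the replicate that was called, and the calling threshold sets a floor under them. Library depths were not in the lists, and the lowest background at any summit was close in the 4 lists, at 0.465 to 0.571 fragments. More Rb at a site in each cell and more cells with Rb at that site cannot be told apart in such bulk libraries.

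Shared DMSO sites were taller in every library, with median fold enrichments of 6.99 and 6.81 in DMSO and 26.6 and 25.9 in palbociclib. Palbociclib-only sites were lower, at 7.26 and 7.101 in palbociclib. The single-library DMSO sites thus lay between them, and in the plot of peak heights they overlap the lower part of the shared DMSO sites. Region widths followed the same order, with medians of 857 bp at single-library, 1019 bp at shared and 575.5 bp at palbociclib-only sites. Their DMSO peaks were narrower than the palbociclib regions around them, with a median width of 204.5 bp.

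**Figure D1:**
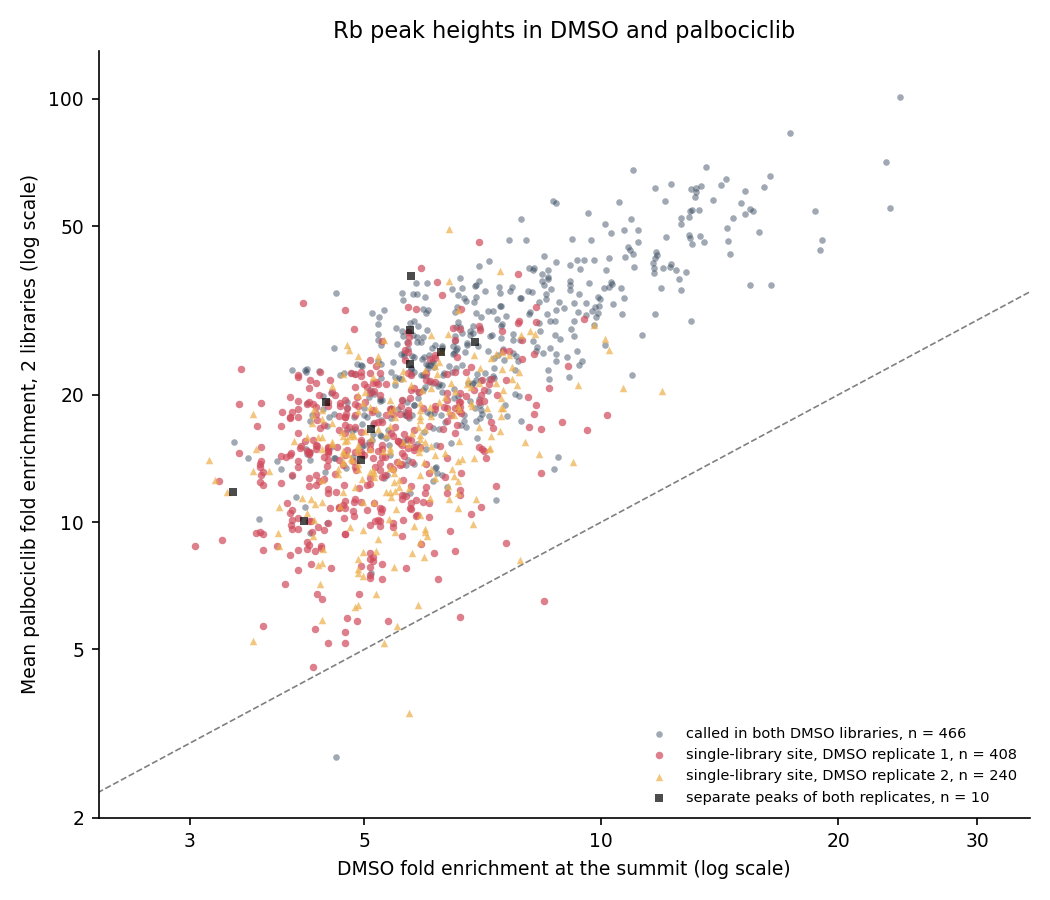
Fold enrichment at the summit in DMSO (x axis, mean where both replicates had a peak) against the mean of the 2 palbociclib libraries (y axis), both on log scales, with 1 point per region and the dashed line marking equal values. The middle 50% of single-library DMSO sites lie between 11.7 and 19.3 on the y axis, below the upper arm of the 466 shared DMSO sites.

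The position of the single-library DMSO sites in the palbociclib ranking was not at its top. Ranked by mean palbociclib fold enrichment, the 658 sites ran from rank 41 to rank 6588 of 6644, with a median rank of 1082, against 288.5 for shared and 3858.5 for palbociclib-only sites. They made up 28.3% of the top decile of regions, 33.4% of the next decile and 16.6% of the one after it. Their share in the lower deciles ran from 9.47% down to 0.301% of the lowest decile. In the top decile, 54.7% of regions were shared DMSO sites, and in the next 11.7%, so single-library DMSO sites outnumbered shared ones (222 against 78) there. Sites called in DMSO replicate 1 and in DMSO replicate 2 had nearly the same median rank, 1097 and 1053.5.

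**Figure D2:**
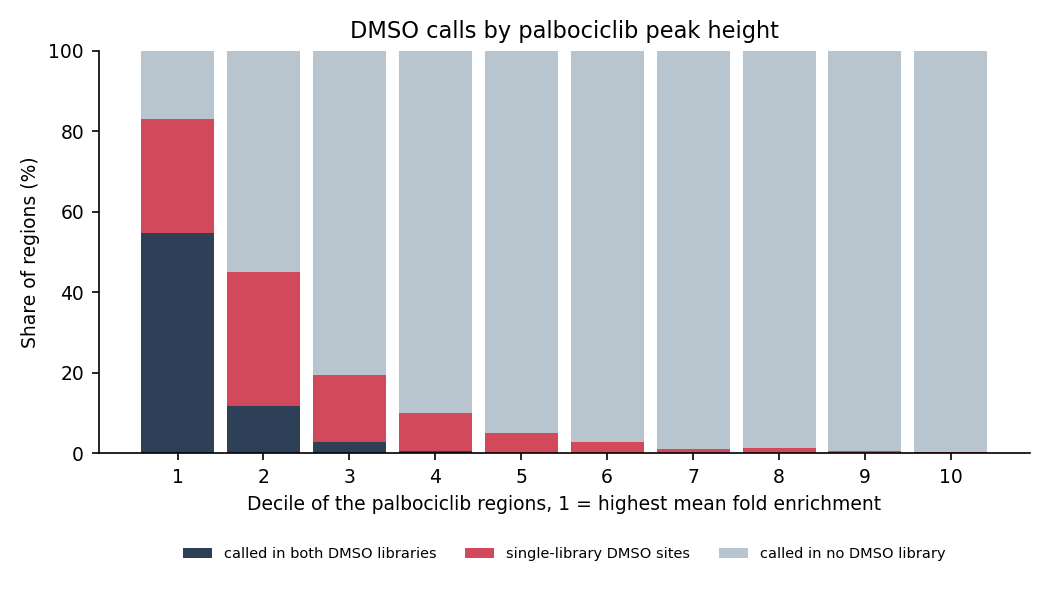
The 6644 palbociclib regions in deciles of mean palbociclib fold enrichment (x axis, decile 1 the highest) and the share of each decile by DMSO call (y axis, percent). The share of single-library DMSO sites is largest in decile 2, at 33.4%, whereas that of shared sites drops from 54.7% to 11.7% between deciles 1 and 2.

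The palbociclib replicates gave similar heights at these sites. The larger of the 2 fold enrichments was a median of 1.17 times the smaller, and 583 of 658 sites (88.6%) were within 1.5 times. Across the 658 sites, Spearman's correlation was 0.799 between the palbociclib replicates and 0.380 between the mean palbociclib and the highest DMSO fold enrichment. At shared DMSO sites these were 0.894 and 0.748 (n = 466). The sites share libraries and base composition, and the DMSO range of the single-library sites is cut by the calling threshold, so the values are descriptions. The DMSO summit lay within 50 bp of the palbociclib summit at 302 of 658 sites (45.9%, 95% exact interval 42.0 to 49.8%) and at 333 of 466 shared sites (71.5%, 67.1 to 75.5%), where 2 DMSO summits could fall near it. Here and below, binomial intervals are exact (Clopper-Pearson) and cover counting error only, since regions are not replicates of a condition.

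Neither RB1 KO library had a peak at any of the 658 sites. Over all 6644 palbociclib regions, the RB1 KO lists had peaks at 1 (DMSO, 0.0151%) and 2 (palbociclib, 0.0301%), so this is not particular to these sites. A count of 0 of 658 allows a share of up to 0.456%, and on these chromosomes the knockout lists held only 4 and 5 peaks. The IgG2a list, with 1724 peaks, overlapped 8 sites (1.22%, 0.527 to 2.38%), against 71 of 5520 palbociclib-only sites (1.29%). The 5 tallest in palbociclib were at the promoters of STT3B, a subunit of the oligosaccharyltransferase, ISOC1, PDP1, a phosphatase that activates pyruvate dehydrogenase, BOLA1 and EFCAB2. At STT3B the IgG2a peak had a fold enrichment of 4.57, from 6 fragments, and the Rb peaks were 6.74-fold in DMSO replicate 1 and 24.6- and 20.7-fold in palbociclib.

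Most single-library DMSO sites lay at promoters, taken as the stretch from 2000 bp before to 500 bp after a transcription start (TSS) of a protein-coding gene. The count was 594 of 658 (90.3%, 87.7 to 92.4%), close to the 93.3% of shared (90.7 to 95.4%) and 88.9% of palbociclib-only sites (88.0 to 89.7%). The palbociclib summit was within 100 bp of a TSS at 272 sites (41.3%), against 42.7% of shared and 46.3% of palbociclib-only sites. It was within 500 bp at 576 (87.5%), against 90.1% and 84.5%. Head-to-head gene pairs with TSSs at most 1000 bp apart made up 110 sites (16.7%, 13.9 to 19.8%), between 20.8% of shared (17.2 to 24.8%) and 11.7% of palbociclib-only sites (10.8 to 12.6%). Over all palbociclib heights, the interval of the single-library sites overlapped that of the shared sites and not that of the palbociclib-only sites. In the top decile the single-library and palbociclib-only shares were 16.0% and 15.9%, and in the next 14.9% and 15.9%. In deciles 3 and 4 together they were 17.3% and 13.1%, with overlapping intervals. In deciles 5 to 10 they were 22.7% (13.8 to 33.8%) and 10.8% (9.82 to 11.8%).

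Of the 64 sites outside protein-coding promoters, 43 were intergenic, 9 intronic, 8 exonic and 4 in a 3′ untranslated region. At 40 of them a TSS of a non-coding gene or non-coding transcript lay within the same distances. The tallest was the RYR1 intron (chr19:38506955-38507515), at 6.40-fold in DMSO replicate 2 and 50.3- and 48.4-fold in the palbociclib libraries, from 11 fragments against 91 and 90. An intergenic site 192220 bp upstream of the nearest TSS, that of STARD13, a GTPase-activating protein (chr13:33542416-33543225), was 9.52-fold in DMSO replicate 1 and 31.9- and 28.4-fold in palbociclib. The BCL9 site (chr1:147599441-147600339), in an intron of this Wnt pathway cofactor, reached 7.02-fold in DMSO replicate 1, then 27.3- and 29.6-fold. An exonic site of LMTK3, a kinase gene (chr19:48492668-48493997), reached 6.38-fold in DMSO replicate 2, then 27.6- and 28.1-fold. At all 4 the DMSO peak rested on fewer fragments than either palbociclib peak.

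The CCNE1 locus, which encodes cyclin E1, the CDK2 partner at the start of S phase, held 2 single-library DMSO sites, each called in a different DMSO replicate. At its promoter (chr19:29811240-29812317) the peak was 6.09-fold in DMSO replicate 2 and 25.4- and 30.04-fold in palbociclib, from 10 fragments against 47 and 55. An intergenic site 27370 bp downstream of the nearest CCNE1 TSS (chr19:29844258-29845500) was 4.85-fold in DMSO replicate 1 and 31.5- and 25.7-fold in palbociclib, from 11 fragments against 70 and 61. Both windows lacked E2F letters and held SP/KLF letters.

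The 10 tallest single-library DMSO sites in palbociclib were RYR1, CDC7, DNPEP, CDKN3, MAP3K6, ANKMY1 with DUSP28, LSM4, PGRMC2, SFR1 and NMT2. CDC7, the kinase that fires replication origins (chr1:91500584-91501684), was 6.99-fold in DMSO replicate 1, from 10 fragments, and 46.8- and 45.2-fold in palbociclib, from 70 and 69. CDKN3 (chr14:54396501-54397304) was 7.44-fold in DMSO replicate 2, from 12 fragments, and 37.9- and 40.6-fold in palbociclib, from 68 and 75. LSM4, of the RNA-binding LSm ring (chr19:18322916-18323386), was 6.40-fold in DMSO replicate 2, then 37.2- and 37.1-fold. SFR1, a recombination factor (chr10:104121564-104122504), was 6.28-fold in DMSO replicate 1, then 36.05- and 32.8-fold. The promoter region of ANKMY1 and DUSP28 (chr2:240560220-240561462) was one of the 10 sites with separate peaks, at 5.50-fold in DMSO replicate 1 and 5.98-fold in DMSO replicate 2, each from 9 fragments, and 44.3- and 31.9-fold in palbociclib. Of these 10 sites none held E2F letters within 100 bp of the summit.

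The DMSO heights had a different leading group. The highest was XRCC5, which encodes the Ku80 subunit of DNA end joining (chr2:216109092-216109380), at 12.0-fold in DMSO replicate 2, from 19 fragments, and 17.3- and 23.5-fold in palbociclib, from 29 and 41. SCML1, a Polycomb-related gene, PSIP1, which encodes the chromatin-tethering protein LEDGF, SVIP, an inhibitor of endoplasmic reticulum-associated degradation, and BMAL1, a circadian transcription factor, followed at 10.1- to 10.7-fold. Their palbociclib to DMSO ratios were 1.94 for SCML1, 2.49 for PSIP1, 1.76 for SVIP and 2.68 for BMAL1, all below the median of 2.87. These sites were picked by DMSO fold enrichment, the divisor of the ratio, so low ratios are favoured by the choice itself. The largest ratios were 7.90 at NMT2, an N-myristoyltransferase, 7.71 at the RYR1 intron and 6.74 at DNPEP, an aminopeptidase.

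At 2 sites the DMSO fold enrichment was above that of both palbociclib peaks. ADGRG6, an adhesion G protein-coupled receptor (chr6:142301939-142302419), was 5.71-fold in DMSO replicate 2, from 12 fragments, and 3.21- and 3.88-fold in palbociclib, from 10 and 15. GPR89A, a Golgi pH regulator (chr1:145608037-145608534), was 8.46-fold in DMSO replicate 1, from 13 fragments, and 5.30- and 7.74-fold, from 12 and 11. GPR89A has a near-identical copy, GPR89B, so its reads are uncertain. TREX1, a DNA exonuclease (chr3:48465802-48466486), had the next lowest ratio, 0.899, at 6.62-fold in DMSO replicate 1, from 13 fragments, and 5.08- and 6.83-fold in palbociclib, from 9 and 12. In fragments, the DMSO value lay between the palbociclib values at ADGRG6 and above both at GPR89A and TREX1.

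At the edge of the calls, the weakest DMSO peaks that made a single-library site had a −log10 q of 1.34 at an intergenic site nearest to HMGN2, a nucleosome-binding protein, 1.37 at the APIP and PDHX promoter and 1.43 at NENF. Just outside, regions counted as shared because of a weak peak in the other replicate were MXD3, with a −log10 q of 18.3 and 1.33, U2AF1L4 with PSENEN, with 1.36 and 3.70, and GGN with SPRED3, with 7.39 and 1.39. The weaker peak at MXD3, a MAX-binding repressor, rested on 7 fragments.

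Gene lists for cell cycle, replication, repair, chromatin and comparison groups held 481 genes, and 54 (11.2%) had a single-library DMSO site at the promoter. Over all 19962 protein-coding genes the share was 732 genes (3.67%). A site counts for every gene whose promoter it overlaps, so some listed genes share their site with another gene. Examples are POLE with PXMP2, CDC45 with UFD1, MDC1 with TUBB, RAD17 with TAF9 and AK6, BRCA2 with ZAR1L, and ORC6 with VPS35. Of 329 genes in the cell cycle, replication, repair and chromatin lists, 46 (13.98%) had such a site, 66 had a shared DMSO site (with 2 genes, CDKN2C and SIN3A, in both counts), 158 had only palbociclib-only sites and 61 had no region. Shared DMSO sites were thus at 20.1% of these genes, against 2.74% of all protein-coding genes. Genes with only palbociclib-only sites made up 48.0% against 27.0%, and genes with no region 18.5% against 66.6%. A share above that of all genes was therefore seen for every kind of site, not for single-library DMSO sites alone.

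**Figure D3:**
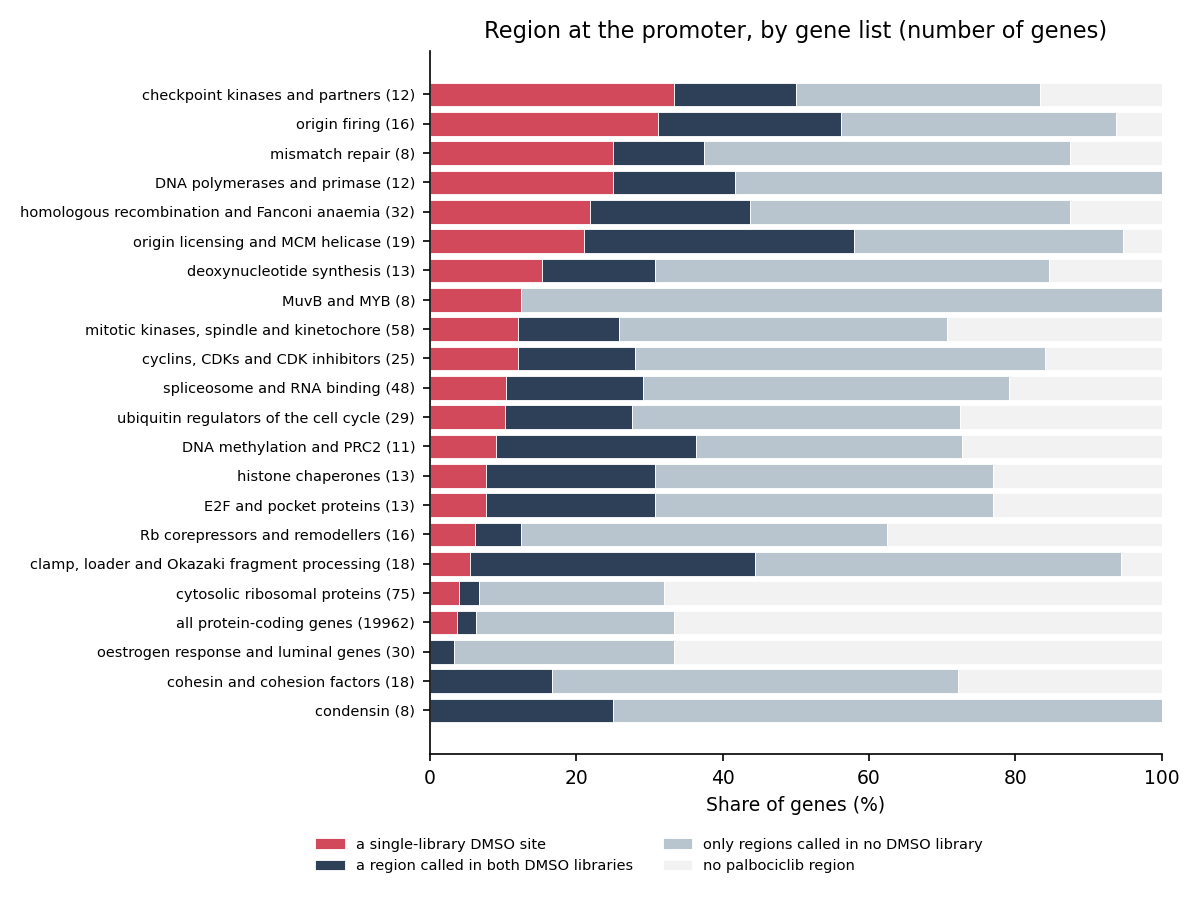
Share of the genes of each list (x axis, percent, with the number of genes in parentheses) by the kind of region at the promoter, where a gene with both a single-library and a shared site counts under the first. Checkpoint kinases and origin firing have the largest shares of single-library DMSO sites, 33.3% and 31.3%, and condensin, cohesin and oestrogen response genes have none. Those lists are short, and the 3.67% share of all protein-coding genes would give few such genes in them.

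Among genes of origin firing, 5 of 16 had a single-library DMSO site: CDC7, DBF4, GINS4, CDC45 and TOPBP1. DBF4, the activating subunit of the CDC7 kinase (chr7:87875737-87876876), was 5.68-fold in DMSO replicate 1 and 20.8- and 24.3-fold in palbociclib, from 11 fragments against 50 and 50. The DBF4 site also covers the promoter of the head-to-head gene SLC25A40, and its summit lay nearer to a TSS of that gene than to DBF4. The CDC7 and DBF4 sites were both called in DMSO replicate 1 alone, as were 408 of all 658 sites. The shared replicate is therefore not particular to this kinase. GINS4, of the GINS complex of the active helicase, was 4.90-fold in DMSO replicate 1, from 23 fragments, and 21.9- and 17.7-fold, from 95 and 109. CDC45, the other helicase cofactor (chr22:19478949-19480318), was 5.89-fold in DMSO replicate 2 and 11.5- and 6.38-fold in palbociclib. Its palbociclib heights were below those of GINS4. TOPBP1, a scaffold of origin firing and ATR activation (chr3:133661563-133662405), was 5.17-fold in DMSO replicate 2, from 8 fragments, and 8.17- and 5.39-fold in palbociclib, from 23 and 10, with nearly equal values in one palbociclib library and DMSO.

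Origin licensing, the loading of the MCM helicase, had 4 of 19 genes, MCM6, CDT1, MCM10 and ORC6. MCM6 (chr2:135876319-135876772), whose window above holds 2 E2F matches and 2 CCAAT boxes, was 7.19-fold in DMSO replicate 2 and 12.2- and 17.5-fold in palbociclib, from 12 fragments against 22 and 33. CDT1 (chr16:88803368-88803976) was 4.82-fold in DMSO replicate 2 and 15.1- and 13.3-fold in palbociclib. MCM10 reached 8.56- and 13.7-fold and ORC6, a subunit of the origin recognition complex, 8.15- and 7.39-fold. Another 7 of the 19 genes had a shared DMSO site.

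Of 12 genes for DNA polymerases and primase, 3 had a single-library DMSO site. POLD1, the catalytic subunit of polymerase delta (chr19:50383875-50384789), was 5.60-fold in DMSO replicate 2 and 23.05- and 20.8-fold in palbociclib, from 11 fragments against 51 and 48. POLE, that of polymerase epsilon (chr12:132686935-132688047), was 6.37-fold in DMSO replicate 1 and 13.9- and 14.5-fold, and POLA2 of polymerase alpha was 4.91-fold in DMSO replicate 2 and 7.75- and 7.41-fold. The clamp and loader genes had 1 of 18, RFC4, at 5.24-fold in DMSO replicate 1 and 23.2- and 16.8-fold, while 7 of the 18 had a shared DMSO site. RRM1, the large subunit of ribonucleotide reductase, was 4.83-fold in DMSO replicate 2 and 15.5- and 12.5-fold in palbociclib.

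Repair and checkpoint genes were represented by single-library DMSO sites at 4 of 12 checkpoint genes and 7 of 32 genes of homologous recombination and the Fanconi pathway. The head-to-head pair of ATM, the double-strand break kinase, and NPAT, the activator of histone genes (chr11:108222168-108223338), was 7.93-fold in DMSO replicate 1, from 29 fragments, and 25.4- and 28.6-fold, from 86 and 102. CHEK1, the kinase downstream of ATR (chr11:125625428-125626502), was 4.28-fold in DMSO replicate 1 and 7.68- and 8.24-fold in palbociclib. Its palbociclib heights were below those of the ATM and NPAT site. MDC1, a damage mediator at γH2AX, reached 21.8- and 18.6-fold and RAD17, the checkpoint clamp loader, 10.6- and 7.21-fold.

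RAD54L, a recombination translocase (chr1:46247358-46248125), led the recombination genes at 6.26-fold in DMSO replicate 2, from 15 fragments, and 28.1- and 22.6-fold in palbociclib, from 68 and 57. BARD1, the BRCA1 partner, reached 21.9- and 20.5-fold in palbociclib, RBBP8, which starts end resection, 21.3- and 19.6-fold, and FANCA (chr16:89816265-89817030) 17.7- and 20.7-fold. FANCB, BRCA2 and RAD51C lay between 10.4- and 16.3-fold in the palbociclib libraries. Across these 7 genes, DMSO values ran from 4.91- to 7.22-fold, and each lay below both palbociclib values.

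Cell cycle regulators with a single-library DMSO site were CCNE1, PKMYT1 and CDKN2C, 3 of 25 cyclin and CDK genes, E2F8, 1 of 13 E2F and pocket protein genes, MYBL1, 1 of 8 MuvB and MYB genes, and CUL4B, ANAPC5 and CDC23, 3 of 29 ubiquitin regulators. PKMYT1 (chr16:2979869-2980836) was 6.59-fold in DMSO replicate 2, from 18 fragments, and 16.4- and 20.7-fold in palbociclib, from 55 and 62. E2F8, an atypical E2F repressor (chr11:19240910-19241502), was 4.69-fold in DMSO replicate 2 and 14.2- and 15.3-fold, from 11 fragments against 31 and 36. MYBL1, a MYB family activator, was 5.01-fold in DMSO replicate 2 and 20.5- and 20.2-fold. CDKN2C, which encodes the CDK4/6 inhibitor p18, shared its single-library site with the head-to-head gene FAF1. The summit lay 247 bp downstream of the FAF1 TSS and 725 bp upstream of a CDKN2C TSS. This site was 4.63-fold in DMSO replicate 2 and 12.7- and 13.2-fold in palbociclib. Another region at a CDKN2C promoter (chr1:50968152-50969564) was a shared DMSO site and taller, at 33.6- and 18.6-fold in palbociclib. Among chromatin genes, single-library DMSO sites lay at UHRF1, the maintenance methylation factor, at 17.1- and 14.1-fold in palbociclib, and SIN3A, a histone deacetylase scaffold, at 25.7- and 24.0-fold. The shared DMSO site at a SIN3A promoter was taller, at 49.8- and 65.9-fold in palbociclib.

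Mitotic genes had 7 of 58: PLK4, AURKA, TOP2A, CENPL, CENPN, CENPP and CENPS. PLK4, the kinase that drives centriole duplication (chr4:127880577-127881622), was 6.15-fold in DMSO replicate 1 and 17.8- and 19.8-fold in palbociclib, from 12 fragments against 34 and 39. TOP2A (chr17:40417369-40418348) was 6.62-fold in DMSO replicate 1 and 20.8- and 16.6-fold, and AURKA, the spindle kinase, which shares its promoter with CSTF1, was 5.33-fold in DMSO replicate 2 and 18.4- and 13.8-fold. The 4 centromere protein genes reached 8.24- to 15.6-fold in palbociclib. None of 8 condensin genes, 18 cohesin genes or 30 oestrogen response and luminal genes had a single-library DMSO site. At the 3.67% share of all protein-coding genes, lists this short would hold few such genes, so their absence says little. All 8 condensin genes had a palbociclib region, 2 of them a shared DMSO site. By contrast, 20 of the 30 oestrogen response and luminal genes had no region. Comparison lists gave 3 of 75 cytosolic ribosomal protein genes (4.00%), RPS16, RPL27A and RPL35, and 5 of 48 spliceosome genes (10.4%), SNRPB, SNRPD1, SNRPE, SNRPF and SF3B3. The ribosomal share stood near the 3.67% of all protein-coding genes.

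**Figure D4:**
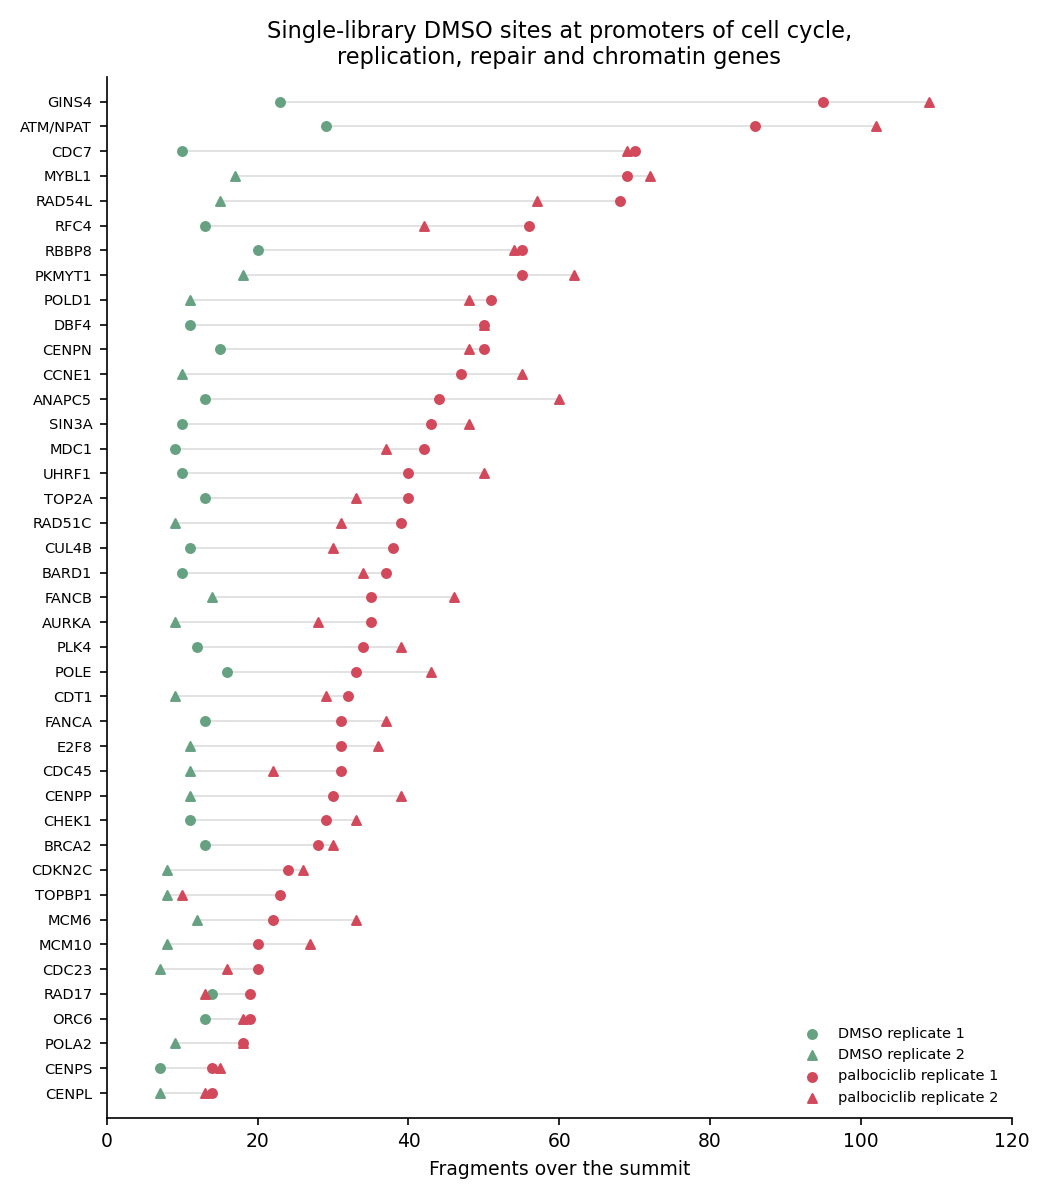
Fragments over the summit (x axis) for each single-library DMSO site at a promoter of the cell cycle, replication, repair and chromatin lists other than mismatch repair and deoxynucleotide synthesis (rows, with genes that share a site joined), in the called DMSO library (green) and both palbociclib libraries (red). At RAD17 the DMSO value of 14 lies between the palbociclib values of 19 and 13, and in the other rows it lies below both.

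The sequence around the palbociclib summit was not used in choosing the sites. Consensus letters were looked for, on either strand, in the 100 bp flanking each side of the taller palbociclib summit and in windows of the same length at 19625 protein-coding TSSs. The E2F letters were TTTCCCGC, TTTCGCGC, TTTGCCGC and TTTGGCGC, of which TTTCCCGC can share bases with an adjoining SP/KLF match. They were found at 54 single-library DMSO sites (8.21%, 6.23 to 10.6%), at 13.5% of shared sites (10.5 to 17.0%), at 4.80% of palbociclib-only sites (4.25 to 5.40%) and at 2.83% of TSS windows (2.60 to 3.07%). The CCAAT box, CCAAT, was found at 193 sites (29.3%, 25.9 to 33.0%), against 38.4% of shared (34.0 to 43.0%), 24.2% of palbociclib-only sites (23.04 to 25.3%) and 25.3% of TSS windows. Both together occurred at 24 sites (3.65%, 2.35 to 5.38%), among them MCM6, E2F8 and FANCA. The share with both was 6.44% at shared sites, 1.39% at palbociclib-only sites and 1.97% over all palbociclib regions. Over all palbociclib heights, for E2F letters and the CCAAT box, the intervals of the single-library DMSO sites did not overlap those of the palbociclib-only sites. They lay below that of the shared sites for the CCAAT box and just met it for E2F letters. Shares within levels of palbociclib height are given below. There the CCAAT share of the single-library DMSO sites was not above that of the palbociclib-only sites at any level.

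For each of the other letters, the interval of the single-library DMSO sites overlapped those of the shared and the palbociclib-only sites. SP/KLF letters, GGGCGG, were at 451 single-library DMSO sites (68.5%, 64.8 to 72.1%), at 71.7% of shared and 70.7% of palbociclib-only sites and at 54.0% of TSS windows. NRF1 core letters, CGCATGCG, were at 23 sites (3.50%, 2.23 to 5.20%) against 1.502% of shared (0.606 to 3.07%) and 2.21% of palbociclib-only sites (1.84 to 2.63%), with overlapping intervals. Letters searched for CHR (TTTGAA and TTCGAA) were at 28 sites (4.26%) and 6.75% of TSS windows, for E-boxes (CACGTG) at 36 (5.47%) and 5.64%, for ETS (CCGGAAGT) at 13 (1.98%) and 5.08%, for YY1 (AAGATGGC) at 9 (1.37%) and 3.78%, for CRE (TGACGTCA) at 6 (0.912%) and 2.05%, and for AP-1 (TGACTCA and its reverse complement) at 4 (0.608%) and 2.12%. The palindromic oestrogen response element was in 0 of 658 windows, which allows a share of up to 0.456%, and in 7 of 19625 TSS windows (0.0357%). Letters of none of E2F, CCAAT, NRF1, ETS or CRE were found at 413 sites (62.8%, 58.9 to 66.5%). The share was 51.1% at shared sites, 67.9% at palbociclib-only sites and 66.2% over all palbociclib regions. Absence of letters says only that they are not in these 201 bases.

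**Figure D5:**
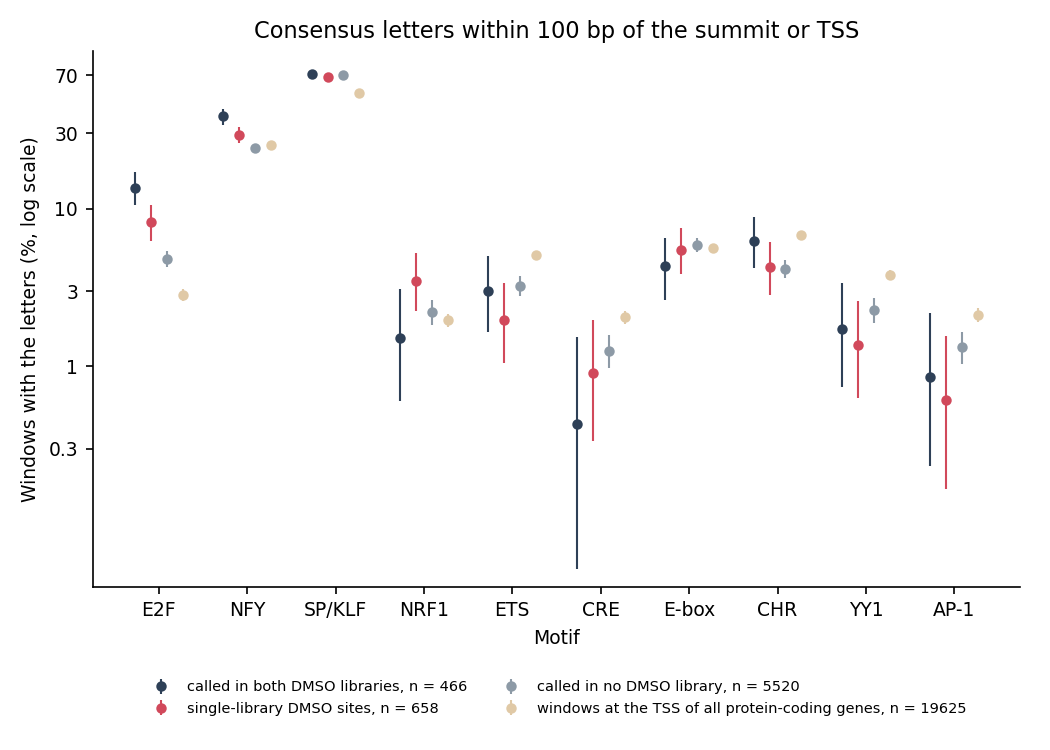
Share of 201-base windows that hold each motif's letters (y axis, percent on a log scale) by motif (x axis), with points for the share and bars for the 95% exact interval. For E2F the single-library DMSO sites, at 8.21%, lie between shared (13.5%) and palbociclib-only sites (4.80%), and all 3 lie above the TSS windows (2.83%).

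E2F shares were also compared within levels of palbociclib height. In the top decile of regions, E2F letters were at 9 of 188 single-library DMSO sites (4.79%, 2.21 to 8.89%), 51 of 363 shared sites (14.05%, 10.6 to 18.1%) and 8 of 113 palbociclib-only sites (7.08%, 3.11 to 13.5%). In the next decile they were at 24 of 222 (10.8%, 7.05 to 15.7%), 9 of 78 (11.5%, 5.41 to 20.8%) and 20 of 365 (5.48%, 3.38 to 8.34%). In deciles 3 and 4 together they were at 16 of 173 (9.25%, 5.38 to 14.6%), 3 of 23 (13.04%, 2.78 to 33.6%) and 65 of 1133 (5.74%, 4.46 to 7.25%). In deciles 5 to 10 they were at 5 of 75 single-library DMSO sites (6.67%, 2.2 to 14.9%) and 172 of 3909 palbociclib-only sites (4.40%, 3.78 to 5.09%). The single-library share was the lowest of the 3 in the top decile, where its interval lay below that of the shared sites, and lay above the palbociclib-only share in each lower level, with overlapping intervals. CCAAT boxes in the top and the next decile were at 33.5% and 30.2% of single-library DMSO sites, 41.9% and 28.2% of shared sites and 46.0% and 39.5% of palbociclib-only sites. At the single-library sites themselves, palbociclib height differed little with the letters, with a median fold enrichment of 14.7 at the 54 sites with E2F letters and 15.2 at the 604 without, and 16.1 with and 14.95 without a CCAAT box.

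Base composition was close between the kinds of site. The median GC content of the windows was 68.7% at single-library DMSO sites, 68.2% at shared and 71.1% at palbociclib-only sites, and 66.7% at TSS windows. The ratio of observed to expected CpG was 0.867, 0.857, 0.883 and 0.819 in that order. Sites called in DMSO replicate 1 and in DMSO replicate 2 were also alike in letters, with E2F at 7.84% (5.43 to 10.9%) and 8.75% (5.50 to 13.1%) and CCAAT at 27.7% and 32.1%. Their DMSO peaks differed in median width, 220.5 bp for replicate 1 and 177.5 bp for replicate 2.

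The single-library DMSO sites were spread over all 23 chromosomes. They made up 9.9% of palbociclib regions in all and between 6.41% (chromosome 14, 15 of 234) and 15.8% (chromosome 13, 19 of 120) of those on single chromosomes. At 8 genes, CDKN2C, FARP2, KLHL21, MFAP1, SIN3A, TBC1D31, WDR76 and ZNF48, the promoter held both a single-library and a shared DMSO site.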

How the data were processed

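Rb and IgG2a CUT&RUN peak lists of 7 ZR-75-1 libraries were used, with groups taken from their titles. Per the study's methods and the submitters' processing notes, trimmed reads were aligned by the authors to hg38 (Bowtie2 2.3.4.1), blacklisted and mitochondrial reads were dropped, duplicates were kept, and peaks were called library by library (MACS2 2.2.7.1) against an IgG control at a q of 0.05. The control of the IgG2a list itself is not given in the sources used here. The deposited fold enrichment is a ratio of fragments to local background at the summit, with the same constant added to both as given above. The −log10 p-value, −log10 q-value and score are also the authors' deposited values, and the score was not used. Library depths were not in the lists, so precision is given by the fragments behind each summit.

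Peaks were compared with Python 3.11.15, and intervals were computed with scipy 1.17.1. Palbociclib regions were joined from peaks of both libraries that overlapped by at least 1 bp, and the tallest overlapping peak of a library stood for its value. Whole fragment numbers were solved from fold enrichment and p, and the −log10 p recomputed from them was off by at most 0.00551. Genes were taken from GENCODE 44 and bases from hg38, in which every peak end lay within its chromosome. Region joining, fragment recovery and letter searches were checked on simulated data. No test was run, since the rule used the DMSO and palbociclib calls. The sites, gene lists and named genes were chosen with earlier results of these data known. Named genes were listed genes with a site at the promoter, the 10 tallest sites in palbociclib, the 5 tallest in DMSO and outside promoters, 3 at each edge of the calls and of the ratio, and up to 5 with IgG2a or separate DMSO peaks. Other overlaps, thresholds, list lengths, promoter definitions and windows were tried as alternatives. Some listed genes are not reported here.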

Additional observations from a re-analysis of the deposited data

How the results depend on the processing

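No paired analysis was possible because the values come from no test. The 5 summary values were recomputed under other settings, giving 41 values, of which 29 stayed within the limits set (1.5 times for counts, the 95% interval for shares, and 1 SD between the palbociclib replicates, 0.0138, for the ratio). With 50% reciprocal overlap there were 87 sites, 12 listed genes and a median ratio of 3.10; DMSO peaks were much narrower than palbociclib regions, so few pairs meet that overlap. With a −log10 q of at least 5 there were 329 sites, an E2F share of 10.6% and a ratio of 2.90, and with a fold enrichment of at least 5 the ratio was 2.83. E2F shares were 4.26% with windows of 50 bp to each side and 19.9% with 250 bp, against 4.51% and 30.04% of shared and 2.12% and 10.9% of palbociclib-only sites. With TSSs of all genes the promoter share was 96.4%. In fragments the ratio was 3.17. Leaving out either palbociclib library gave a ratio of 2.85 to 2.87. Without a DMSO library no site can meet the rule. At 254 sites the DMSO peaks rested on at most 10 fragments, and the part of library depth in the DMSO calls was not tested.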
